A study of Rattus norvegicus with 8 samples.

Results

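The genes described here are 10 antiviral effectors that interferons switch on, namely the oligoadenylate synthetase (OAS) family members Oas1a, Oas1b, Oas2, Oas3, Oasl and Oasl2, the IFIT genes Ifit1, Ifit2 and Ifit3, and Rsad2, which encodes viperin. They were selected by gene symbol in the deposited gene table, taking the entry with the highest average log2 CPM (CPM is a read count scaled to the size of its library) where a symbol had several. Of the 10 genes, 9 had an entry among the 14016 of the table, and Oas3 had none. None of these symbols stood on more than 1 entry, so the measured level decided no choice of entry. The genes were listed with earlier results of these data known. The study sequenced RNA from thyroarytenoid (TA) muscle, the muscle of the vocal fold, of 8 male Long Evans rats at 8 months of age. The groups were 4 homozygous Pink1-/- rats, a knockout model of early Parkinson's disease that lacks the mitochondrial kinase PINK1 in the whole body, and 4 wildtype (WT) rats.

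The table lists 0 columns of values per rat. Its only level is the authors' average log2 CPM over all samples, in which Pink1-/- and WT rats are pooled, and its remaining numbers are the authors' own comparison of the genotypes, which was not used. The values below are therefore levels in the pooled samples, with no spread between rats, no value for either genotype and no test, and the depth of each library is unknown. Where the genotypes differ in a gene, the average describes neither of them.

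Interferons bind receptors on the cell surface and activate a transcription factor complex that includes STAT2 and IRF9, which enters the nucleus and binds a DNA motif known as the interferon-stimulated response element. OAS enzymes sense double-stranded RNA and make short 2-5A chains of adenosine, a signal that leads to the cutting of viral and cellular RNA. IFIT proteins bind foreign RNA ends and block their translation, and viperin converts CTP into a nucleotide that stops viral RNA polymerases. These genes are usually quiet in resting tissue and are widely read as a sign of interferon exposure.

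To show the letters that the members share, the RefSeq promoters of the rat assembly GRCr8 were searched for the response element, spelled GAAA, 2 free bases and GAAA, on both strands. Each window holds 300 bases, 250 before and 50 after the start of the gene. RefSeq windows were at hand for 7 of the 10 members, and Oas2, Ifit1 and Ifit2 were not searched. The element was present in 6 of the 7, while 3.92% of all 33469 windows held it. This share is given as a description, since the members were named as interferon-induced genes and several are paralogs, and a match is not evidence of binding in this muscle.

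The stretches around the matches are the evidence for this count and are written 5′ to 3′ on the strand of the gene, with the matching bases in capitals. The Oas1a stretch lies at chr12:41330400-41330465 on the plus strand, and the Oas1b stretch at chr12:41395871-41395936 on the minus strand.
Oas1a: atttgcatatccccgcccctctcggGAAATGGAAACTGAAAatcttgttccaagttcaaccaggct
Oas1b: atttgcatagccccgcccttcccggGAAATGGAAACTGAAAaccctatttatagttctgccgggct
In both genes the capitals hold 2 overlapping matches that share a GAAA. They begin 41 and 35 bases before the start in Oas1a, and 59 and 53 bases before it in Oas1b. The 2 windows also had an identical run of 41 bases farther upstream, the longest of any of 21 member pairs. The next longest run was 11 bases.

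Oas3, which makes the longest enzyme of the family, carried its match 95 to 86 bases before the start, on the strand of the gene. Its stretch lies at chr12:41439612-41439671 on the plus strand.
Oas3: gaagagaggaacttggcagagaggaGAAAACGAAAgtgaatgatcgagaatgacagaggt
In the remaining 3 genes the element lay on the opposite strand, so that it reads as TTTC on each side of the free bases. The Oasl2 stretch is at chr12:47383302-47383361 (minus), the Ifit3 stretch at chr1:241527257-241527316 (plus) and the Rsad2 stretch at chr6:48788233-48788292 (minus).
Oasl2: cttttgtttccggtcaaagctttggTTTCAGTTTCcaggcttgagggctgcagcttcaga
Ifit3: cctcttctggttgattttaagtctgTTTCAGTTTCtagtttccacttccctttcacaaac
Rsad2: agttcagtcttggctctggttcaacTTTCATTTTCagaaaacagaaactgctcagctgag
The match began 44 bases before the start in Ifit3, against 151 in Oasl2 and 147 in Rsad2. Oasl2 and Ifit3 had the same 10 bases, which on the opposite strand read as the second match of Oas1a and Oas1b. Rsad2 had other bases. Oasl was the member whose window held no match, which says only that these letters are absent from that window. A second motif, the gamma-activated site TTCNNNGAA, was in the Oas1a and Oas1b windows and in 8.87% of all windows. In these 2 genes it sat 199 and 213 bases before the start, inside the identical run of 41 bases, so the 2 matches are 1 sequence shared by paralogs and not separate occurrences.

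**Figure D1:**
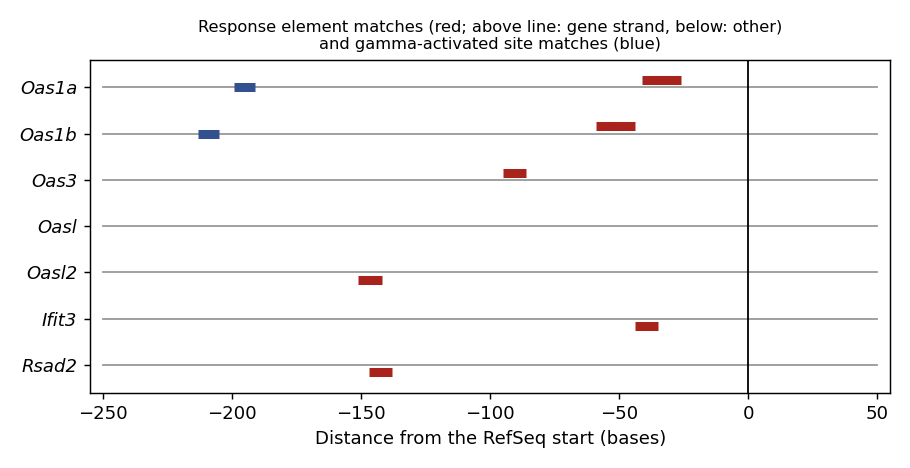
Positions of the response element (red) and the gamma-activated site (blue) in the RefSeq windows of 7 members, in bases from the start of the gene. Red bars above a line are on the strand of the gene and those below on the other, and 6 of the 7 windows carry a red bar, all before the start.

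Among the 5 OAS genes with an entry, Oas1b had the most reads. Its average log2 CPM in the authors' deposited table was 3.37, which equals 10.4 CPM. In mice, the gene of this name is known for resistance to flaviviruses. Oas1a, a 2-5A synthetase, was at an average log2 CPM of 1.97 (3.93 CPM), and 28.9% of all entries were lower. Oas2, a larger synthetase, was at 0.52 (1.43 CPM), with 9.43% of entries lower. All 3 were thus present in the table, and Oas2 was near its low end. CPM is not divided by transcript length, and no transcript lengths were at hand, so these values are shares of reads and do not rank the genes by the number of RNA molecules.

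Both OAS-like genes had an entry. Oasl, whose mouse counterpart holds back translation of the transcription factor IRF7, was at an average log2 CPM of 1.24 (2.37 CPM). Oasl2, which in mice has kept synthetase activity, was at 2.55 (5.85 CPM). The median entry of the table was at 3.14, so both OAS-like genes, Oas1a and Oas2 took fewer reads than the median entry. Together the 5 OAS genes with an entry summed to 23.9 CPM, or 33.7% of the CPM of the 9 members with an entry.

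Among the 9 members with an entry, Ifit2 took the most reads. Its average log2 CPM was 4.53, which equals 23.1 CPM, and 75.6% of all entries were lower. The protein acts with other IFIT proteins on foreign RNA and in mice protects neurons from certain viruses. Ifit3, whose human counterpart stabilizes IFIT1 on RNA, was at an average log2 CPM of 2.90 (7.46 CPM). Ifit1, which binds RNA caps that lack a methyl mark of the host, was at 2.63 (6.17 CPM). These 3 genes made up 51.6% of the CPM of the 9 members with an entry, with 36.7 CPM in sum.

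Rsad2 was at an average log2 CPM of 3.39 (10.5 CPM), above 55.1% of entries. Its read share was the closest to that of Oas1b, and without values per rat it is not known which members differ beyond the spread between samples. Over all 9 genes the median was 2.63, with 3 above the median entry and 6 not above it. Each gene was at 1 CPM or more, as were 96.0% of all entries, with CPM taken from the average log2 value. Their sum of 71.1 CPM was 0.00699% of the CPM of the whole table.

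**Figure D2:**
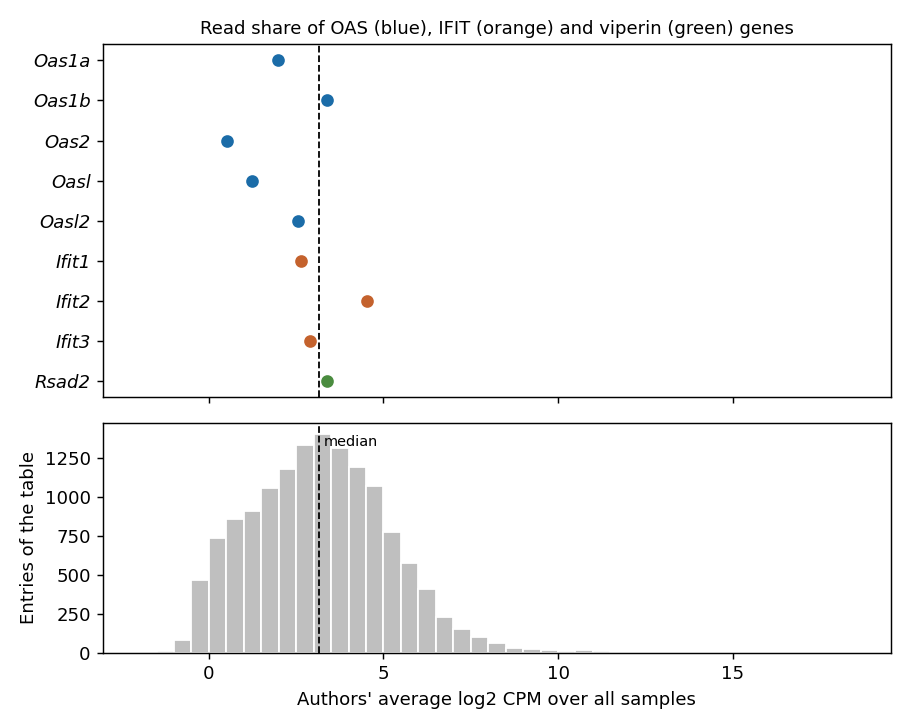
The authors' average log2 CPM over all samples of 9 members (top) and the number of table entries at each level (bottom, in steps of 0.5), with the median entry as a dashed line. Oas1b, Ifit2 and Rsad2 lie to the right of the line and the other 6 genes to its left.

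Most members sit beside relatives in the genome. In the RefSeq table, Oas2 and Oas3 are next to each other, as are Oasl and Oasl2, and Ifit2 and Ifit3. Oas1a and Oas1b lie in a run of Oas1 genes. Of 6 further rat OAS genes in RefSeq, 1 had an entry, Oas1i, at an average log2 CPM of 0.80. The 1 further IFIT gene, Ifit1bl, was at 1.11, and its RefSeq locus overlaps that of Ifit1. The neighbour of Rsad2 is Cmpk2, a kinase that supplies nucleotides for viperin, which was at 2.78 (6.87 CPM). RSEM divides reads among similar transcripts, so the values of Oas1a, Oas1b and Ifit1 are uncertain to the extent that copies share sequence. Oasl and Oasl2 each overlap 1 noncoding gene in RefSeq, and whether the counting used strand is not given in the sources used here.

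Genes that act next to the members were measured as well. Pde12, which breaks down 2-5A, was at an average log2 CPM of 2.37, and Abce1, a ribosome recycling factor, at 5.50. All 11 listed genes of interferon receptors and signal transduction had an entry, with a median of 3.61. The highest of these were the kinase gene Jak1 at 6.68, the receptor genes Ifnar1 at 4.88 and Ifngr1 at 4.64, and Stat2 at 4.58. Irf9, which acts with STAT2 on the response element, was at 2.94. Thus transcripts of the receptor, the kinase and these parts of the complex were present in the pooled samples.

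Of 9 genes of RNA and DNA sensing, 8 had an entry, with a median of 3.54. The adaptor gene Mavs and the factor genes Irf3 and Irf7 were at 4.50, 4.50 and 3.69, and the RNA sensor gene Tlr3 at 4.31. Of 23 other interferon-induced effectors, 22 had an entry, with a median of 3.47. They ranged from 0.16 to 5.38, and 12 of the 22 lay above the median entry. The highest were the antiviral GTPase genes Mx2 at 5.38 and Mx1 at 4.79, the membrane protein gene Ifitm3 at 4.86, and Dtx3l, a ubiquitin ligase gene, at 4.59. None of 4 interferon genes (Ifnb1, Ifng, Ifnk and Ifne) had an entry.

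The response element was also counted in the promoters of these lists. It was in 9 of 16 other interferon-induced effectors with a RefSeq window and in 2 of 6 sensing genes, Ifih1 and Irf7. It was in 0 of 9 genes of receptors and signal transduction, in 0 of 4 interferon genes, and in neither Pde12 nor Abce1. These counts stand beside the 6 of 7 of the members and the 3.92% of all windows, and no test was made between them. The list counts are per gene, with a match in any of its windows, whereas the 3.92% is a share of single windows.

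**Figure D3:**
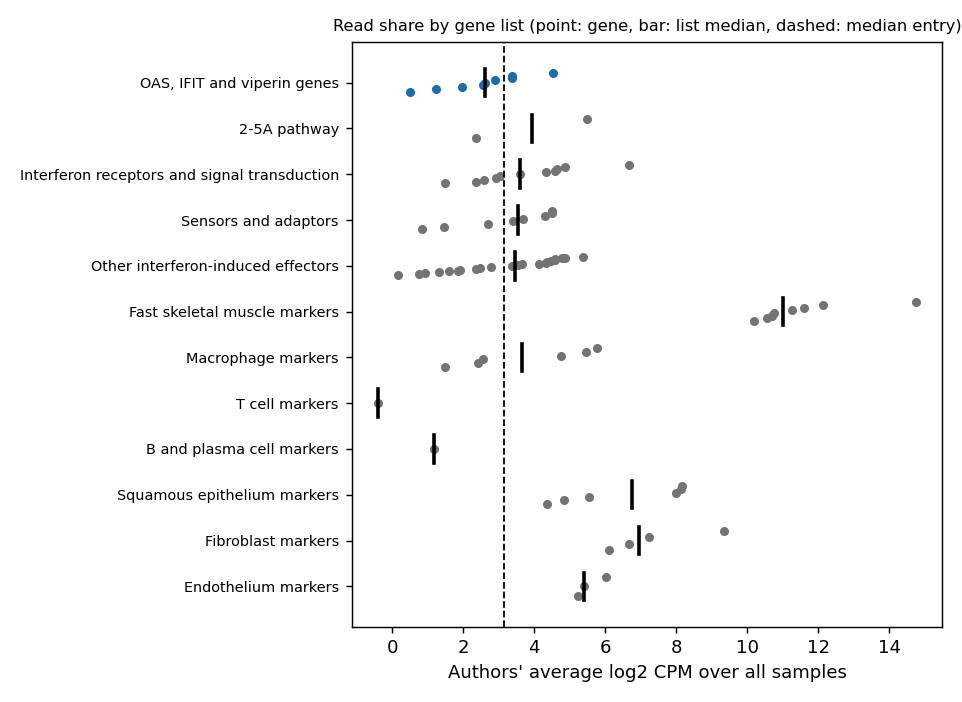
The authors' average log2 CPM over all samples for the 9 members (blue) and for lists of interferon pathway genes and cell type markers (grey). The interferon genes themselves had no entry and are not drawn. Each point is 1 gene, the black bar is the median of the list, and the dashed line is the median entry at 3.14. The muscle markers lie above 10 and the member median is at 2.63.

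The tissue label was checked against markers. Of 11 fast skeletal muscle markers, 8 had an entry, and these spanned 10.20 to 14.75 in average log2 CPM, led by the fast myosin gene Myh4 at 14.75. The other 3, the myosin genes Myh1 and Myh2 and the calcium pump gene Atp2a1, had no entry although fast muscle is known to express them, so a missing entry cannot be read as a low level, for Oas3, the interferon genes and the cell type markers alike. Other cell types were present too. All 6 markers of squamous epithelium had an entry, with a median of 6.77, and all 4 fibroblast markers, with a median of 6.94. Of 4 endothelium markers, 3 had an entry, with a median of 5.41, and Pecam1 had none. The 6 macrophage markers had a median of 3.67, from 1.49 for Aif1 to 5.76 for Cd163, and 3 lay above the median entry. Of 4 T cell markers 1 had an entry, Lck at -0.39, and of 4 B and plasma cell markers 1, Jchain at 1.19. OAS, IFIT and viperin genes can be induced in most nucleated cells, and which cells of these samples made the transcripts was not tested. In bulk tissue, fewer cells of a type and less RNA per cell cannot be told apart.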

How the data were processed

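The authors sequenced TA muscle RNA of 4 Pink1-/- and 4 WT males, and the genotype label of each sample set its group. Tools credited in the submitters' processing notes are RSEM, without a version, and edgeR 3.9. The genome build, annotation, filter and normalization were not given in the sources used here. Used from the deposited table was the authors' average log2 CPM, 1 value per gene over all samples. The columns of fold change, likelihood ratio, p-value, adjusted p-value and status hold the authors' own comparison and were not used, so the planned test between genotypes, which needed values per rat, was not run. CPM is 2 raised to the authors' average log2 value, which need not equal the mean of the CPM of single rats.

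The members and gene lists were chosen with earlier results of these data known. All members are named, with up to 4 highest genes of each list, and Irf9, Ifih1, Oas1i, Ifit1bl, Cmpk2 and marker genes besides. Some genes of the lists are not reported here and were left out of the list counts and medians. Symbols were matched to RefSeq (GRCr8), including synonyms, for 12630 entries. The 300-base promoter windows were searched for motifs on both strands, and a gene with several windows counted once if any matched. The gamma-activated site was added after the promoters had been seen. The scan was checked on 200 planted matches. Alternatives were other spellings of the element, 1 entry per symbol and a minimum CPM of 1. Scripts ran under Python 3.11.15 with matplotlib 3.10.9, scipy 1.17.1, pandas 2.3.3 and numpy 2.4.6.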

Additional observations from a re-analysis of the deposited data

How the results depend on the processing

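With a C required after the last base of the response element, 4 of 7 members held it, and 6 of 7 held it with its last A left out, against 6 as reported. Those spellings occur in 0.881% and 9.71% of all windows. No member stood on several entries, so the choice of entry moved no level. With 1 entry per symbol, the share of lower entries moved by at most 0.131 percentage points for the 9 members, and with a minimum average CPM of 1 by at most 3.76 points. The 4 list medians were not moved by that minimum. No paired analysis was possible because rats have no columns of their own in the table, and for the same reason DESeq2, other filters and leaving out rats were not run. The order per coding length and the identity of the proteins were not run, because no protein or transcript lengths were at hand.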
